A study of Mus musculus with 12 samples.

Results

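The tumor necrosis factor (TNF) superfamily, meaning its ligands and their receptors, was examined in RNA from mouse skin wounds treated with capsaicin (CAP) or with the carrier gel alone. Members were taken by gene symbol: every Tnfsf or Tnfrsf gene with a number, together with Tnf, Lta, Ltb, Ltbr, Cd40, Cd40lg, Cd27, Cd70, Fas, Fasl, Ngfr, Eda, Edar, Eda2r and Relt. The rule used no expression value and found 46 genes, 18 ligands and 28 receptors, among 55487 genes listed for each library. A mean of at least 0.3 TPM (a length-corrected share of all transcripts) in at least 1 group was reached by 42 of them, 16 ligands and 26 receptors. The other 4, Edar, Cd70, Cd40lg and Tnfrsf13c, stayed under that level in every group and are not described further.

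The wounds were made by punch biopsy through the whole skin of the back of male C57BL/6JNarl mice, 6 weeks old. CAP, the pungent compound of chili peppers and an agonist of the ion channel TRPV1, was given at 10 µM in Pluronic F127 gel once daily (CAP-treated wounds), and the sham group received the gel alone, so every wound in the study carried the gel. Wound tissue was collected at day 3 or day 6, giving 4 groups of 3 libraries: sham day 3, CAP day 3, sham day 6 and CAP day 6. Each mouse carried a pair of wounds, and the sources used here do not tie libraries to mice. The replicate unit is therefore the library, and p-values measure only the spread between libraries.

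Ligands of the TNF superfamily are trimers, held on the cell surface or released from it, and most are made by immune cells and by stressed tissue cells. Their receptors bind TRAF adaptors, which switch on NF-kappaB and MAP kinase signaling, or, in the members with a death domain, can start apoptosis. In skin the family carries the alarm of early inflammation (TNF and lymphotoxins), gives costimulation to T cells and antigen-presenting cells (the CD40, OX40, CD27 and 4-1BB pairs), regulates bone and tissue remodeling (RANKL and TWEAK) and shapes hair follicles (ectodysplasin).

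The values are TPM, which divide by transcript length, so levels can be compared between genes, but TPM do not keep sequencing depth, which is unknown. Between 18533 and 19325 genes reached 0.3 TPM in a library. Keratinocyte markers were abundant, 6 genes summing to between 23078 and 90024 TPM. The 5 B cell markers summed to 1.52 to 3.80 TPM, and Ms4a1 was listed at the floor of the files in 7 libraries. The CAP day 6 libraries were uneven: keratinocyte markers summed to 59732, 90024 and 42649 TPM in replicates 1, 2 and 3, against 24784 to 27813 TPM in sham day 6. In whole tissue, fewer cells of a type and less RNA per cell cannot be told apart.

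Receptors were far more abundant than ligands. The 28 receptors summed to between 568 and 921 TPM in a library, and the 18 ligands to between 51.1 and 138 TPM. Tnfrsf1a (TNFR1, the widely expressed death-domain receptor of TNF) was the highest member, with a mean of 218 TPM over all 12 libraries. Ltbr (the lymphotoxin beta receptor) followed with 105 TPM, and Tnfrsf1b (TNFR2, a TNF receptor with no death domain) with 94.2 TPM. Tnfrsf12a (Fn14, the TWEAK receptor), Tnfrsf23 (a mouse decoy receptor for TRAIL), Tnfrsf19 (TROY) and Tnfrsf21 (DR6) had means between 36.6 and 51.8 TPM. Among the ligands, Tnfsf12 (TWEAK) had the highest mean, 46.1 TPM. Tnfsf14 (LIGHT) had 12.5 TPM, Tnfsf13 (APRIL) 8.40 TPM, Tnfsf9 (4-1BB ligand) 7.63 TPM and Tnf itself 6.66 TPM. The T cell ligand Fasl and the plasma cell receptor Tnfrsf17 (BCMA) were the lowest of the described members, at 0.259 and 0.381 TPM. The levels of Tnfsf12 and Tnfsf13 are uncertain, because 47.4% and 58.4% of their 31-base stretches also occur in other genes, mostly in the read-through gene Tnfsfm13. Tnfrsf22 and Tnfrsf23 likewise share 38.3% and 26.7% of theirs, mostly with each other.

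**Figure D1:**
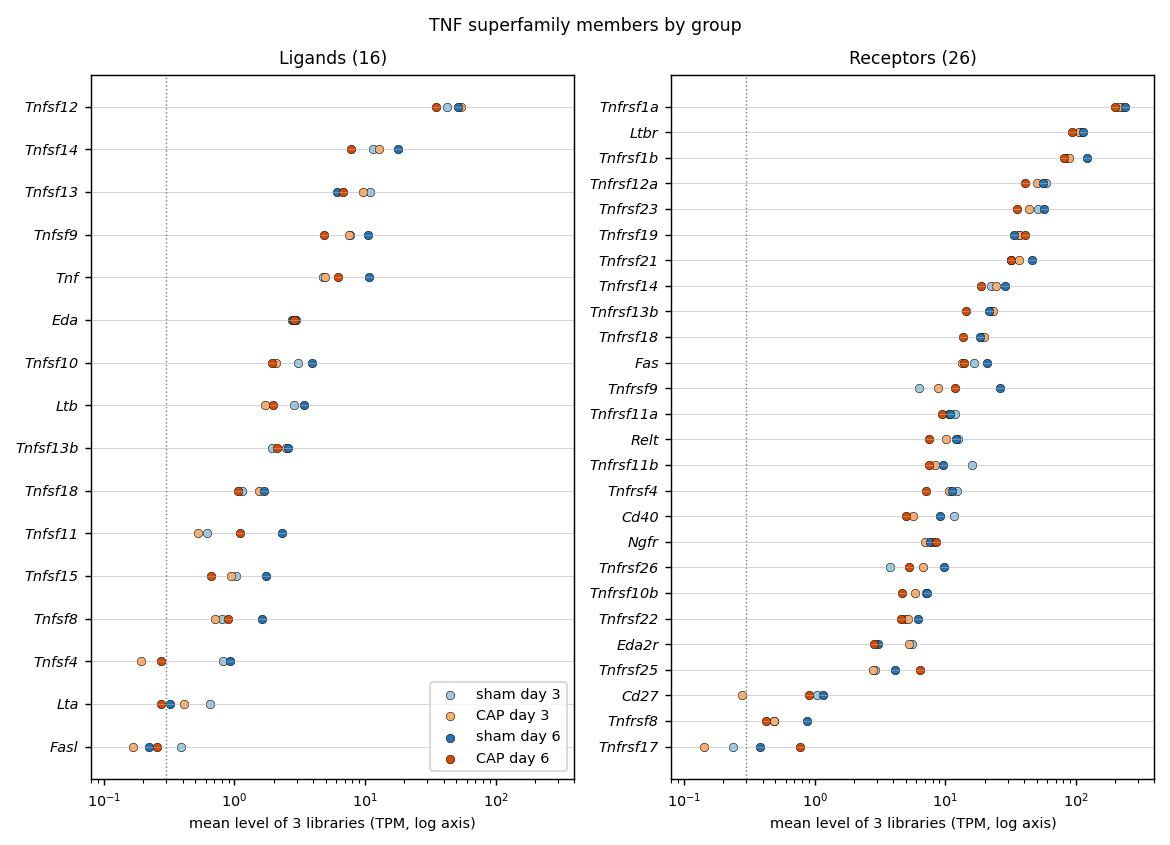
Mean level of each of the 42 described members in the 4 groups (x axis: TPM, log axis; each point is the mean of 3 libraries; the dotted line marks 0.3 TPM), with 16 ligands on the left and 26 receptors on the right. Tnfrsf1a tops the receptors at 201 to 236 TPM in every group, while sham day 6 stands to the right of the other groups for Tnf, Tnfrsf9 and Tnfsf11.

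The course of healing under the gel alone was read from sham day 6 against sham day 3. Tnf, the 4-1BB receptor Tnfrsf9, the receptor Tnfrsf26 and the osteoclast factor RANKL (Tnfsf11) were higher at day 6, by 2.21-fold to 4.21-fold. A gene was called when limma gave an unadjusted p under 0.05 and the change reached 2-fold on the scale log2(TPM + 0.1), the limits the study used. By this rule 4 of the 40 members tested were called, all 4 higher, beside 3.75% of all 18368 genes tested (2.13% higher). With Benjamini-Hochberg adjustment over all genes, 4 members had an adjusted p under 0.05, against 2.29% of all genes. They were Tnfrsf9, Tnfrsf26 and Tnfrsf21, which were higher, and Tnfsf13, which was lower. Groups did not overlap for 12 members, 10 of them higher at day 6, beside 21.4% of all genes. The median log2 difference was 0.22 over the members tested and 0.0036 over all genes. Without replicate 1 of sham day 3, 7 members were called, beside 873 of all genes, against 688 with all libraries. Over the same days, T cell markers summed to 29.2 to 32.8 TPM at day 3 and 52.1 to 97.3 TPM at day 6. Of their 8 genes, 6 were tested, all higher at day 6 and 1 called. Endothelial markers summed to 79.5 to 110 TPM at day 3 and 220 to 292 TPM at day 6, with 4 of 5 genes called higher, and 5 of 6 erythroid markers were called higher. Monocyte and macrophage markers summed to 3933 to 5556 TPM at day 3 and 6859 to 9945 TPM at day 6, with 5 of 8 above 0 in log2 difference and 1 called lower. Their part in the result was not tested.

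Tnfrsf9 (4-1BB, CD137, a costimulatory receptor that appears on activated T cells and also on other activated cells) had the largest difference of the family with time. It lies at chr4:150914562-150946102 on the forward strand of GRCm38, inside a region also covered by Camta1 on the other strand. Its level was 7.92, 4.61 and 6.20 TPM in the sham day 3 libraries and 30.5, 28.5 and 20.1 TPM in the sham day 6 libraries. Every day 6 value lay far above every day 3 value. The log2 difference was 2.07 ± 0.23 (SE), with an adjusted p of 0.0146 by limma. Tnfrsf26 (chr7:143607659-143628722, reverse strand), a receptor encoded next to the decoy receptors Tnfrsf22 and Tnfrsf23, went from 5.05, 2.87 and 3.48 TPM to 7.61, 11.2 and 10.4 TPM. Its log2 difference was 1.35 ± 0.24 (adjusted p = 0.0417 by limma). Tnfrsf21, a death-domain receptor, differed by 0.54 ± 0.10 (adjusted p = 0.0475 by limma), with 27.9 to 34.4 TPM at day 3 and 43.7 to 47.9 TPM at day 6. Tnfsf13 (APRIL, a survival factor of plasma cells) differed by -0.82 ± 0.15 (adjusted p = 0.0416 by limma), with 9.77 to 13.0 TPM at day 3 and 5.81 to 6.47 TPM at day 6. Over the alternative settings the adjusted p-values ranged from 0.0129 to 0.117 for Tnfrsf9, 0.0238 to 0.299 for Tnfrsf26, 0.0422 to 0.327 for Tnfrsf21 and 0.0411 to 0.225 for Tnfsf13.

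Tnf (chr17:35199381-35202007, reverse strand) lies between Ltb and Lta, the genes of the other ligands of its cluster. It had 5.53, 5.13 and 3.63 TPM in sham day 3 and 9.36, 13.7 and 9.0 TPM in sham day 6. The groups did not overlap, and the log2 difference was 1.15 ± 0.23 (adjusted p = 0.0531 by limma). Without replicate 3 of sham day 3 it was 0.97 and without replicate 2 of sham day 6 it was 0.95, both under 2-fold. Tnfsf11 (RANKL, the ligand that drives osteoclast formation and is also made by activated T cells) was low at day 3, with 1.18, 0.343 and 0.333 TPM, and reached 1.71, 3.28 and 1.99 TPM at day 6. Its log2 difference was 1.90 ± 0.49 (adjusted p = 0.111 by limma). Its receptor Tnfrsf11a (RANK) had 13.0, 10.8 and 11.7 TPM at day 3 and 10.4, 10.1 and 12.3 TPM at day 6, which overlap. Its soluble decoy Tnfrsf11b (osteoprotegerin) had 12.3, 15.4 and 20.2 TPM at day 3 and 13.2, 7.30 and 8.57 TPM at day 6, a log2 difference of -0.73 ± 0.26 with overlapping groups. The ratio of Tnfrsf11b to Tnfsf11 TPM, a comparison chosen after the values were seen, was 10.5, 44.9 and 60.6 in sham day 3 and 7.75, 2.23 and 4.30 in sham day 6. These ratios did not overlap (2-sided exact permutation p = 0.1, the smallest that 3 against 3 libraries can give).

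In sham wounds 10 members in all had an unadjusted p under 0.05, those called among them, beside 16% of all genes. The members not called stayed under the fold limit. Tnfsf8 had 1.09, 0.574 and 0.746 TPM at day 3 and 1.92, 1.68 and 1.29 TPM at day 6, a log2 difference of 0.96 ± 0.31. It passed the threshold without replicate 1 of sham day 3 (1.18) or replicate 3 of sham day 6 (1.11). Tnfrsf1b had 105, 66.4 and 84.5 TPM and then 105, 136 and 126 TPM, a difference of 0.54 ± 0.18. Eda2r, the receptor of an ectodysplasin isoform, was the other member that lay lower at day 6 without overlap, with 6.79, 5.86 and 4.0 TPM and then 3.75, 2.0 and 3.33 TPM. Its difference was -0.87 ± 0.29, and it passed the threshold without replicate 3 of sham day 3 (-1.08) or replicate 1 of sham day 6 (-1.04). The costimulatory ligands all lay above 0, 5 of 5 tested, with a median of 0.47.

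Promoters of 3 of the 4 members called higher in sham wounds, Tnfrsf9, Tnfsf11 and Tnf, are shown to let their sequence be read beside their values. Tnfrsf26 had no entry in the promoter table used here. Of the 42 described members, 34 had a RefSeq promoter (GRCm38.p6), some with more than 1 start, 38 promoters in all. The 250 bases before each start were searched on both strands for 3 consensus motifs, the NF-kappaB site, GAS, which STAT factors bind (TTCNNNGAA, where N is any base), and the core of the interferon-stimulated response element (ISRE). The NF-kappaB and ISRE forms are given by name only, and each is 1 simplified consensus that misses other variants of the site. Each also leaves some positions free, so a match need not meet a stricter form of the site. Matches of different motifs may overlap. NF-kappaB is the factor that TNF receptors activate, and STAT and ISRE elements answer cytokines and interferons. Capitals mark a match. Tnfrsf9 has 2 starts, of which the downstream one (chr4:150927749-150927998, forward strand) held an NF-kappaB match beginning 42 bases and a GAS match 136 bases before the start. The window of the upstream start (chr4:150919905-150920154), not printed, held none of the 3 motifs. The window of Tnfsf11 (chr14:78308044-78308293, reverse strand) held an NF-kappaB match 155 bases before the start. The window of Tnf (chr17:35202008-35202257, reverse strand) held none of the 3 motifs in the forms searched. Ltb (chr17:35194257-35194506, forward strand) is shown beside them as the neighbor of Tnf, with an NF-kappaB and a GAS match.
Tnfrsf9, downstream start: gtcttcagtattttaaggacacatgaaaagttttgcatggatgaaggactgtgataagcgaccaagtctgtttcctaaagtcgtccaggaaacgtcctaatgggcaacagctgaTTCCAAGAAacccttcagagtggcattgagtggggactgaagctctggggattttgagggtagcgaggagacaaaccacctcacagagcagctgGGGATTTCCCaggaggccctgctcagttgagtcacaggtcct
Tnfsf11: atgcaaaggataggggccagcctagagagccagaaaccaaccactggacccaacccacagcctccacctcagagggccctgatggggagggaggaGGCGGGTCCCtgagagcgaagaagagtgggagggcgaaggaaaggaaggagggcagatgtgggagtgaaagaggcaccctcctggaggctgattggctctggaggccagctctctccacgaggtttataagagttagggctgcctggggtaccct
Tnf: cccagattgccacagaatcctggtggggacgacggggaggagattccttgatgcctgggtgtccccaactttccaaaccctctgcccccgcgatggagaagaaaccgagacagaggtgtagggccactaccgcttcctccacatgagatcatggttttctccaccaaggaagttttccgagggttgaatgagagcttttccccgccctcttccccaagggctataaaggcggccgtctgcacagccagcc
Ltb: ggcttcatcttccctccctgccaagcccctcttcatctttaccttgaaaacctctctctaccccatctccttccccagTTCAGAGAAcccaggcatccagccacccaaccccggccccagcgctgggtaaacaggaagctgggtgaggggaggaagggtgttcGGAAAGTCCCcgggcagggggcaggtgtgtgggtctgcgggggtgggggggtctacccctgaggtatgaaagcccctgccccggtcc
NF-kappaB matches were in 10 of the 38 member promoters, beside 17.6% of the 32851 promoters in the table. GAS matches were in 8 (7.02% of all) and ISRE core matches in 4 (2.98% of all). A match is a description of letters and shows no binding.

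**Figure D2:**
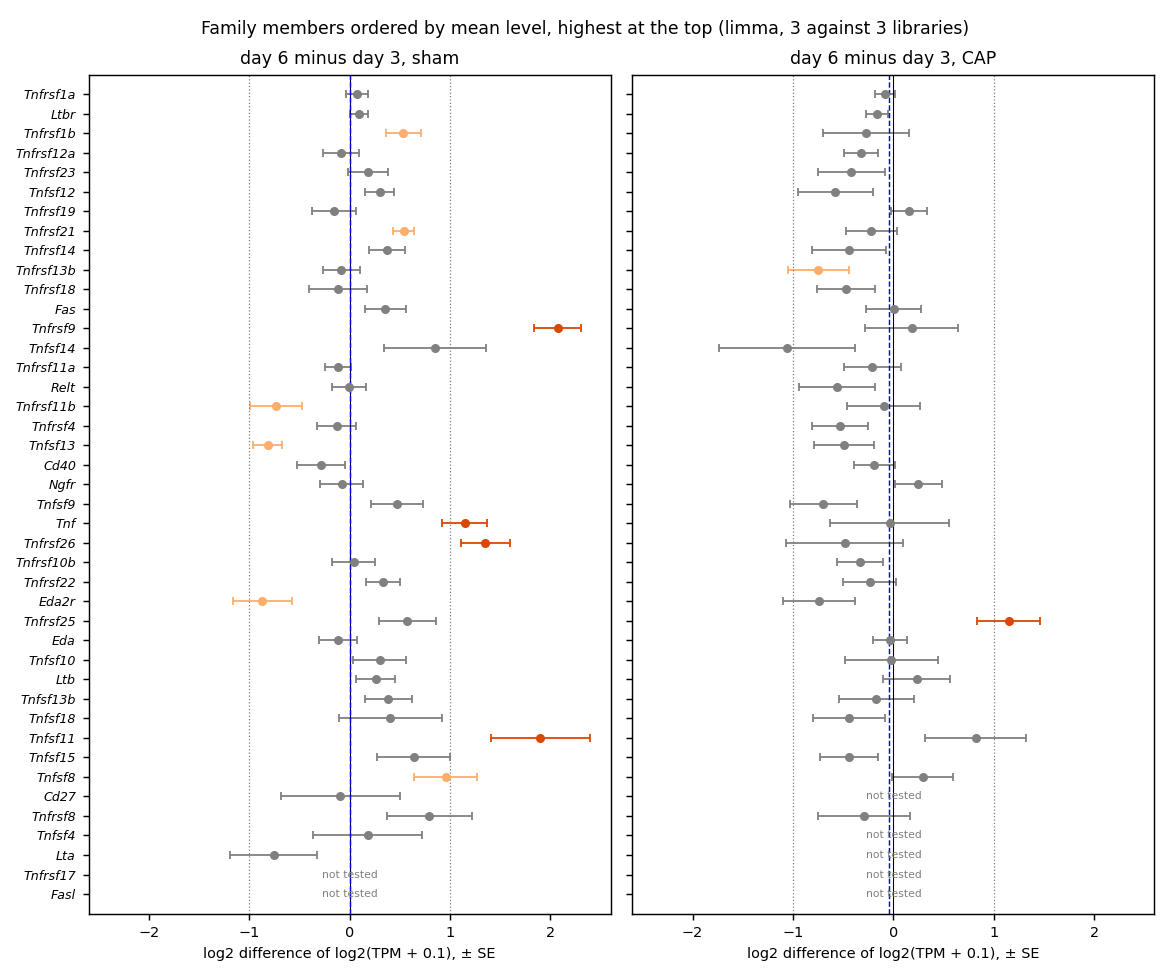
Difference between day 6 and day 3 for each described member in sham wounds (left) and in CAP-treated wounds (right), as the log2 difference of log2(TPM + 0.1) ± SE from limma on 3 against 3 libraries. Dotted lines mark 2-fold, the dashed blue line the median of all genes, dark points the members called and light points those with p under 0.05 alone. In sham wounds Tnfrsf9, Tnfsf11, Tnfrsf26 and Tnf lie beyond 2-fold, and in CAP-treated wounds Tnfrsf25 does.

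At day 3 few members differed between CAP-treated and sham wounds. None of the 38 members tested was called by limma, beside 1.58% of 18330 genes, and 4 had an unadjusted p under 0.05, beside 6.6% of all genes. The median log2 difference was -0.03 over the members and -0.05 over all genes. Groups did not overlap for 2 members, Cd40 and Tnfrsf9, beside 11.6% of all genes. Tnf had 5.53, 5.13 and 3.63 TPM in sham and 4.78, 4.59 and 5.42 TPM in CAP-treated wounds, a log2 difference of 0.07 with a 95% interval from -0.39 to 0.53. Its receptors Tnfrsf1a (245, 202 and 225 TPM in sham, 216, 218 and 203 TPM with CAP) and Tnfrsf1b (105, 66.4 and 84.5 TPM, then 70.1, 77.5 and 118 TPM) overlapped as well. Their log2 differences were -0.07 (interval -0.31 to 0.16) and 0.04 (interval -0.53 to 0.61). Lta, the lymphotoxin that shares these receptors, had 0.362, 0.968 and 0.613 TPM in sham and 0.516, 0.395 and 0.310 TPM with CAP. The study also stained wound sections for TNF protein, day 3 among the days, and reported weaker staining with CAP than in sham wounds. That is protein in tissue sections, whereas the values here are RNA of whole wound tissue.

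Cd40 and Tnfrsf11b lay just under 2-fold at day 3. Cd40 is the receptor through which T cells activate antigen-presenting cells (chr2:165055627-165072948, forward strand). It had 15.7, 7.88 and 11.4 TPM in sham and 5.69, 5.55 and 5.60 TPM in CAP-treated wounds. All CAP values lay below all sham values and within a narrow band, and the log2 difference was -0.99 ± 0.24 (adjusted p = 0.526 by limma). Without replicate 2 of sham day 3 it was -1.24 and passed the threshold. Tnfrsf11b had 12.3, 15.4 and 20.2 TPM in sham and 6.5, 5.73 and 12.8 TPM with CAP, a log2 difference of -0.99 ± 0.33 (adjusted p = 0.692 by limma). It passed the threshold without replicate 1 (-1.16) or 2 (-1.004) of sham day 3 or replicate 3 of CAP day 3 (-1.34). Ltb, a membrane partner of lymphotoxin alpha, had 3.26, 2.24 and 3.05 TPM and then 2.50, 1.35 and 1.30 TPM, a difference of -0.74 ± 0.31 that became -1.03 without replicate 1 of CAP day 3. Tnfrsf9 lay higher with CAP (8.10, 8.66 and 9.46 TPM against 7.92, 4.61 and 6.20 TPM), by 0.51 ± 0.21 (adjusted p = 0.741 by limma), or 0.31 without replicate 2 of sham day 3.

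The study, which tested with DESeq or DESeq2, lists Cd40, Cd27 and Tnfsf4 among the genes that CAP lowered at day 3. Here Cd40 stayed just under 2-fold and was not called. Cd27 and Tnfsf4 lay below the test's filter in CAP-treated wounds at day 3 and were not tested. Cd27, a costimulatory receptor of T and B cells, had 1.44, 0.939 and 0.741 TPM in sham and 0.395, 0.269 and 0.165 TPM with CAP. The groups did not overlap. At day 6 they did, with 1.06, 0.335 and 2.11 TPM in sham and 1.39, 0.563 and 0.773 TPM with CAP. Tnfsf4 (OX40 ligand, found on activated antigen-presenting cells) had 1.38, 0.685 and 0.388 TPM in sham and 0.266, 0.149 and 0.162 TPM with CAP at day 3, again without overlap. At day 6 it had 1.38, 0.434 and 0.949 TPM in sham and 0.682, 0.0592 and 0.0752 TPM with CAP. Its receptor Tnfrsf4 (OX40) was an order of magnitude higher and overlapped at day 3, with 10.1, 12.9 and 13.8 TPM in sham and 14.1, 10.7 and 7.05 TPM with CAP. Cd27 is also covered by Vamp1 on the other strand, and the ligands of Cd40 and Cd27 had no group mean of 0.3 TPM. Monocyte and macrophage markers summed to 3933 to 5556 TPM in sham day 3 and 4587 to 9947 TPM in CAP day 3. Of the 8, 3 lay above 0 and 5 below 0 in log2 difference, with 2 called lower. Lyz2 carried most of the sum, with 2641 to 3954 TPM in sham and 3340 to 7576 TPM with CAP. Ccr2 had 78.0 to 107 TPM in sham and 28.2 to 49.2 TPM with CAP, and Ly6c2 53.9 to 87.0 and 4.16 to 30.4 TPM. Erythroid markers summed to 514 to 753 TPM and 2357 to 2803 TPM, with 5 of 6 called higher. T cell markers summed to 29.2 to 32.8 and 26.2 to 35.3 TPM with none of 6 tested called, and B cell markers to 2.24 to 2.53 and 1.52 to 2.18 TPM. Their part in the result was not tested.

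**Figure D3:**
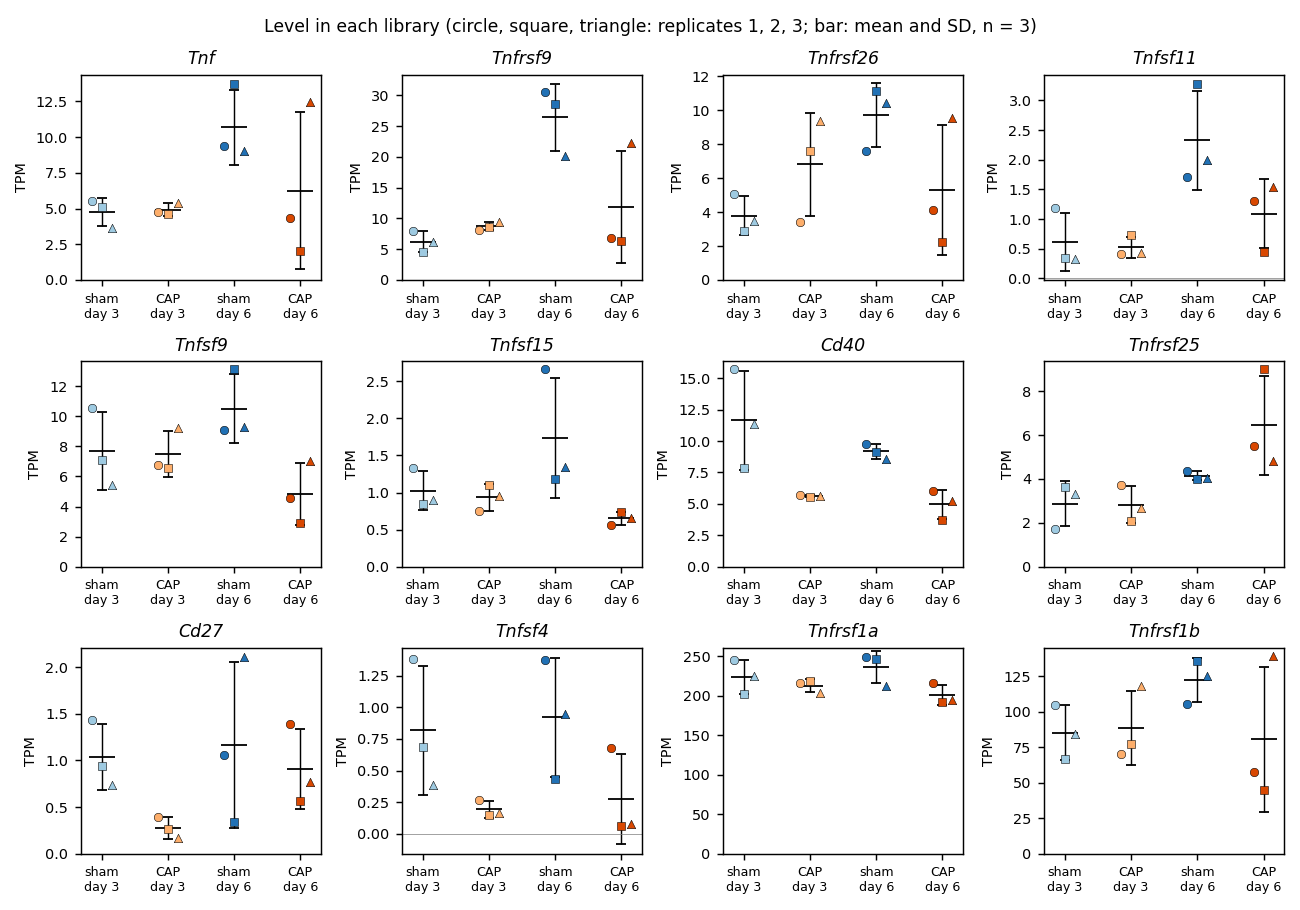
TPM of 12 members in each of the 12 libraries (circle, square and triangle: replicates 1, 2 and 3; bar and whiskers: mean and SD of 3 libraries). Cd40 is lower in all CAP libraries than in all sham libraries of the same day, and replicate 3 of CAP day 6 lies apart from replicates 1 and 2 for Tnf, Tnfrsf9, Tnfrsf26 and Tnfrsf1b.

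At day 6 the family lay lower in CAP-treated than in sham wounds. Of 39 members tested, 33 had a negative log2 difference, and 3 were called, all lower: Tnfsf9, Tnfsf15 and Tnfrsf9. How many of all genes were negative was not counted, and their median was also below 0 (-0.12). The background was 3.8% of 18323 genes called, 2.34% lower. An unadjusted limma p under 0.05 was found for 14 members, beside 19.2% of all genes, and none reached an adjusted p under 0.05, the smallest being 0.205. No gene of the 18323 did, although 3517 had an unadjusted p under 0.05. Groups did not overlap for 13 members, 12 lower and 1 higher, beside 26% of all genes. The median log2 difference was -0.62 over the members, -0.81 over the ligands and -0.52 over the receptors, against -0.12 over all genes. Scaling by median ratios moved the median of all genes by 0.11.

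The number called depended on which CAP day 6 libraries were included. Replicate 2 was the lowest of the 3 for 31 of the 42 described members and lay below every sham day 6 library for 30. Replicate 1 lay below every sham library for 25. Replicate 3 was the highest of the 3 for 26 and lay below every sham library for 17. These counts were made for the members only, so they have no share of all genes to be set beside. Replicate 2 also had the lowest median-ratio scaling factor of all 12 libraries, 0.906, against 1.02 to 1.06 in sham day 6. The factors of replicates 1 and 3 likewise lay below those of sham day 6. How far the counts reflect whole libraries and not the family was not tested. Without replicate 3 of CAP day 6, 12 members were called lower, and without replicate 2 only 1 was. Without replicate 1 of CAP day 6 there were 5, and without replicate 1 of sham day 6 there was 1. A joint fit of all 12 libraries called 7, all lower. Over all genes, 429 were called lower with all libraries, 1025 without replicate 3 of CAP day 6 and 171 without replicate 2. Without replicate 1 there were 548 for CAP day 6 and 253 for sham day 6. The joint fit gave 478 over all genes. Keratinocyte markers ran the other way, with 5 of 6 higher in CAP-treated wounds and 2 called, and the largest sum, 90024 TPM, in replicate 2. All 8 monocyte and macrophage markers were lower, 1 of them called, with sums of 4753, 4076 and 9133 TPM in CAP replicates 1, 2 and 3 against 6859 to 9945 TPM in sham day 6. Neutrophil markers summed to 2668, 278 and 1162 TPM against 1728 to 3284 TPM, with all 5 tested lower and none called. S100a8 and S100a9 carried this sum (962 and 1639 TPM in CAP replicate 1). The other neutrophil genes, Csf3r, Cxcr2, Ly6g and Retnlg, were each highest in CAP replicate 3. Csf3r had 37.1, 26.0 and 142 TPM in CAP replicates 1, 2 and 3. Endothelial markers summed to 183, 62.2 and 168 TPM against 220 to 292 TPM with 2 of 5 called lower. T cell markers summed to 64.3 to 79.2 TPM in CAP day 6 and 52.1 to 97.3 TPM in sham day 6, with none of 6 tested called. The part of these cell types in the result was not tested.

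**Figure D4:**
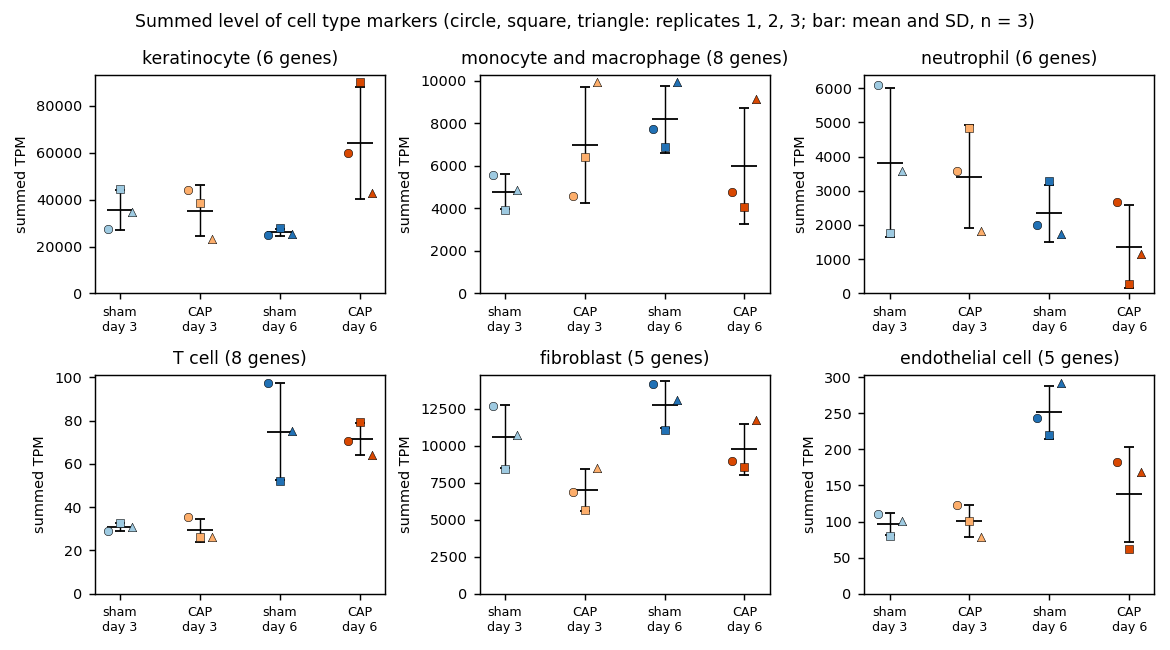
Summed TPM of 6 marker lists in each library (circle, square and triangle: replicates 1, 2 and 3; bar and whiskers: mean and SD of 3 libraries). In CAP day 6, replicate 2 has the highest keratinocyte sum (90024 TPM) and the lowest neutrophil (278 TPM) and endothelial (62.2 TPM) sums, and replicate 3 the highest macrophage sum of its group (9133 TPM).

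Of the 3 members called at day 6, 2 were costimulatory ligands. All 4 of these ligands that were tested had a negative log2 difference, with a median of -0.99. Tnfsf9 (4-1BB ligand, chr17:57105325-57107757, forward strand) had 9.11, 13.1 and 9.25 TPM in sham and 4.59, 2.88 and 7.0 TPM with CAP. Every CAP value was below every sham value, and the log2 difference was -1.17 ± 0.33 (adjusted p = 0.209 by limma), or -0.85 without replicate 2 of CAP day 6, where the call was lost. Tnfsf15 (TL1A, a ligand made by endothelial and antigen-presenting cells, chr4:63724603-63745113, reverse strand) had 2.66, 1.18 and 1.35 TPM in sham and 0.566, 0.743 and 0.660 TPM with CAP. It differed by -1.20 ± 0.36 (adjusted p = 0.212 by limma). Without replicate 1 of sham day 6, its highest library, the difference was -0.86 and under 2-fold, as it was with a pseudocount of 1 TPM (-0.68). Tnfsf8 (CD30 ligand) differed by -0.81 ± 0.28 with no overlap (1.29 to 1.92 TPM in sham, 0.754 to 1.05 TPM with CAP).

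The receptors of these ligands are given next. Tnfrsf9, the receptor of Tnfsf9, had 30.5, 28.5 and 20.1 TPM in sham and 6.80, 6.36 and 22.3 TPM with CAP. Replicates 1 and 2 lay far below all sham libraries, whereas replicate 3 lay within their range. The log2 difference was -1.38 ± 0.47 (adjusted p = 0.226 by limma). The call was lost without replicate 1 (-1.27) or 2 (-1.32) of sham day 6 and without replicate 1 (-1.12) or 2 (-1.07) of CAP day 6. Tnfrsf25 (DR3, the receptor of Tnfsf15, chr4:152115934-152120119, forward strand) was the member without overlap that was higher, with 4.38, 3.99 and 4.06 TPM in sham and 5.52, 8.99 and 4.80 TPM with CAP. Cd40 had 9.79, 9.15 and 8.61 TPM in sham and 6.02, 3.74 and 5.21 TPM with CAP, as at day 3 without overlap. It differed by -0.89 ± 0.20 (adjusted p = 0.205 by limma), and by -1.04 without replicate 1 of CAP day 6, which passed the threshold. Tnfrsf4 had 13.5, 11.8 and 8.69 TPM in sham and 6.09, 6.40 and 8.86 TPM with CAP, which overlap at 1 library (log2 difference -0.66 ± 0.22).

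The values of Tnf and of Tnfrsf1b at day 6 turned on single CAP libraries, and those of Tnfrsf1a did not. Tnf had 9.36, 13.7 and 9.0 TPM in sham and 4.32, 2.0 and 12.4 TPM with CAP. Replicates 1 and 2 lay below all sham libraries, and replicate 3 lay inside their range. The log2 difference was -1.12 ± 0.60, with a 95% interval from -2.53 to 0.29. Without replicate 2 of CAP day 6 it was -0.51, and without replicate 3 it was -1.80 (adjusted p = 0.0415 by limma, in a range of 0.0415 to 0.661 over the alternatives). Tnfrsf1b had 105, 136 and 126 TPM in sham and 57.5, 45.2 and 139 TPM with CAP, a difference of -0.77 ± 0.39 that became -0.44 without replicate 2 and -1.25 without replicate 3 (adjusted p = 0.0293 by limma, in a range of 0.0293 to 0.634). Tnfrsf1a varied less, with 249, 247 and 213 TPM in sham and 216, 192 and 194 TPM with CAP, a difference of -0.23 (interval -0.49 to 0.02). The ratio of Tnfrsf1b to Tnfrsf1a was 0.266, 0.235 and 0.719 in the CAP libraries and 0.423, 0.551 and 0.590 in the sham libraries, and replicate 3 had the highest ratio of all 12. Lta was near 0.3 TPM, with 0.338, 0.362 and 0.262 TPM in sham and 0.374, 0.339 and 0.104 TPM with CAP. Ltb had 3.26, 3.54 and 3.39 TPM in sham and 1.76, 1.59 and 2.6 TPM with CAP without overlap, a difference of -0.78 ± 0.24. Ltbr, which binds the lymphotoxin heterotrimer and LIGHT, had 121, 109 and 113 TPM and then 98.4, 82.6 and 101 TPM, a difference of -0.29 ± 0.11 without overlap.

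The list of death and decoy receptors held Fas, Tnfrsf10b, Tnfrsf21, Tnfrsf22, Tnfrsf23 and Tnfrsf26. All 6 had a negative log2 difference at day 6, with a median of -0.62. None of the 6 was called, and 4 had a limma p under 0.05, beside 19.2% of all genes. The list leaves out death-domain receptors grouped elsewhere, of which Tnfrsf1a differed by -0.23, Ngfr by 0.14 and Tnfrsf25 (DR3) by 0.57. The median over all members tested was also -0.62. Fas, the receptor of Fas ligand, had 19.7, 21.4 and 21.1 TPM in sham and 16.2, 8.79 and 17.0 TPM with CAP (log2 difference -0.62 ± 0.25). Tnfrsf10b (the mouse TRAIL receptor) had 6.04 to 8.48 TPM in sham and 3.54 to 5.42 TPM with CAP (-0.63 ± 0.22). Tnfrsf21 had 43.7 to 47.9 TPM in sham and 23.7 to 43.2 TPM with CAP (-0.56 ± 0.21). These 3 did not overlap. Tnfrsf23 overlapped, with 61.7, 51.2 and 57.4 TPM in sham and 29.6, 20.7 and 55.5 TPM with CAP (-0.80 ± 0.33, and -1.19 without replicate 3 of CAP day 6, which passed the threshold). Without replicate 2 of CAP day 6 the differences were smaller, -0.48 for Tnfrsf23, -0.32 for Fas and -0.37 for Tnfrsf21. Tnfsf10 (TRAIL) had 5.29, 2.68 and 3.88 TPM in sham and 2.57, 1.19 and 2.07 TPM with CAP, without overlap. Its difference was -0.997 ± 0.36, just short of 2-fold, and it passed the threshold without replicate 2 of sham day 6 (-1.24) or replicate 1 (-1.22) or 3 (-1.07) of CAP day 6.

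Among the remodeling members, Tnfsf11 had 1.71, 3.28 and 1.99 TPM in sham day 6 and 1.30, 0.441 and 1.54 TPM in CAP day 6, which do not overlap. Tnfrsf11a (10.4, 10.1 and 12.3 TPM against 10.3, 6.22 and 11.6 TPM) and Tnfrsf11b (13.2, 7.30 and 8.57 TPM against 7.81, 5.12 and 9.70 TPM) overlapped. The ratio of Tnfrsf11b to Tnfsf11 was 5.99, 11.6 and 6.32 with CAP and overlapped that in sham. Tnfsf12 had 47.7, 50.3 and 57.5 TPM in sham and 27.2, 28.9 and 49.6 TPM with CAP (-0.61 ± 0.23). Among the ectodermal and neural members, Eda (ectodysplasin) lay between 2.31 and 3.19 TPM in all 12 libraries, Tnfrsf19 between 24.2 and 48.1 TPM and Ngfr (the p75 neurotrophin receptor) between 6.07 and 11.2 TPM. Neither these nor Eda2r and Relt were called between CAP and sham wounds on either day. The B cell survival members, Tnfsf13, Tnfsf13b (BAFF) and Tnfrsf13b (TACI), were not called between CAP and sham wounds either.

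The remaining members were called in no comparison with the main filter and all libraries. Tnfsf14 (LIGHT, the ligand of Ltbr and of Tnfrsf14) varied between libraries, with 19.99, 4.36 and 10.3 TPM in sham day 3, 10.2, 17.2 and 11.1 TPM in CAP day 3, 18.6, 22.6 and 12.7 TPM in sham day 6 and 8.09, 1.87 and 13.4 TPM in CAP day 6. Its receptor Tnfrsf14 (HVEM) lay between 12.3 and 30.7 TPM. In the GITR pair, the receptor Tnfrsf18 lay between 10.7 and 27.9 TPM and its ligand Tnfsf18 between 0.633 and 2.31 TPM. Tnfrsf8 (CD30, the receptor of Tnfsf8) stayed under 0.982 TPM or at it in every library. Relt lay between 3.58 and 15.002 TPM, Tnfrsf12a between 33.3 and 64.4 TPM, Tnfrsf22 between 3.26 and 6.45 TPM and Tnfsf13b between 1.55 and 3.75 TPM. Fasl did not exceed 0.532 TPM, and Tnfrsf17 was at the floor of the files in 3 libraries and reached 1.02 TPM in replicate 2 of CAP day 6.

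**Figure D5:**
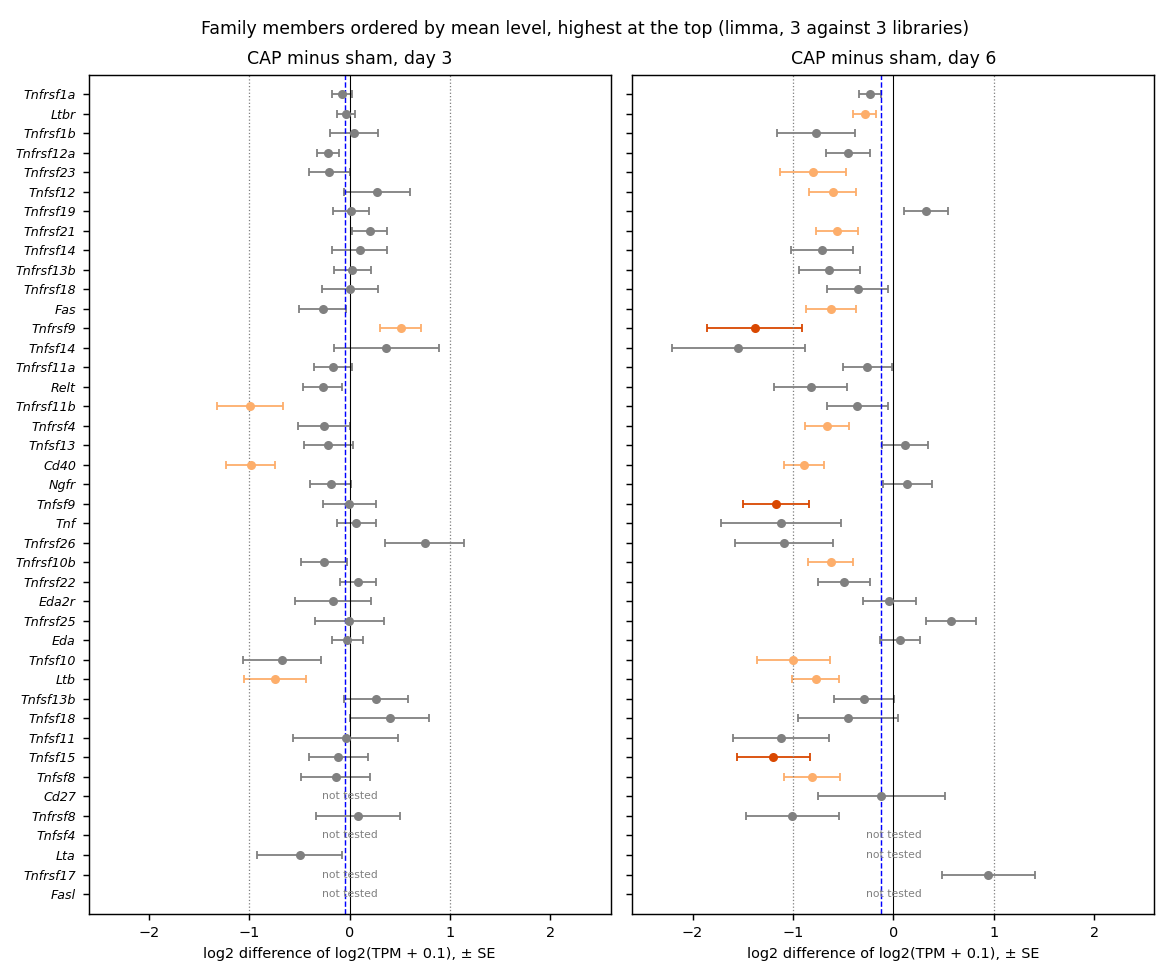
Difference between CAP-treated and sham wounds for each described member at day 3 (left) and day 6 (right), as the log2 difference of log2(TPM + 0.1) ± SE from limma on 3 against 3 libraries. Dotted lines mark 2-fold, the dashed blue line the median of all genes, dark points the members called and light points those with p under 0.05 alone. No member is called at day 3, and at day 6 Tnfrsf9, Tnfsf9 and Tnfsf15 are, in a column of points of which 33 of 39 lie below 0.

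Whether the effect of CAP changed with time was tested as the difference of the CAP effect at day 6 from that at day 3, in 1 fit of all 4 groups. Of 42 members, 4 were called, all with a lower CAP effect at day 6, beside 4.9% of 20267 genes called and 2.73% lower. Tnfrsf9 differed by -1.89 ± 0.57, Tnfrsf26 by -1.84 ± 0.69, Tnfsf9 by -1.17 ± 0.46 and Tnfsf15 by -1.08 ± 0.45, each with an adjusted p of 0.428 by limma. No gene of the 20267 had an adjusted p under 0.05, and 2292 had an unadjusted p under 0.05. Tnfrsf21 also had an unadjusted p under 0.05 (5 members in all, beside 11.3% of all genes), with a difference of -0.76 ± 0.29. For Tnf the difference was -1.19, with a 95% interval from -2.71 to 0.34. Tnfrsf26 had 3.43, 7.61 and 9.39 TPM in CAP day 3 and 4.12, 2.21 and 9.56 TPM in CAP day 6, so its CAP libraries were spread at both days while its sham libraries were not. Without replicate 3 of CAP day 6, 9 members were called, and without replicate 3 of CAP day 3 only 1. Without replicate 1 of CAP day 3 there were 7, and without replicate 2 of sham day 3 or replicate 2 of CAP day 6 there were 2 each. Over all genes, 994 were called with all libraries. There were 1777 without replicate 3 of CAP day 6 and 801 without replicate 3 of CAP day 3. Leaving out replicate 1 of CAP day 3 gave 1341. Leaving out replicate 2 gave 716 for sham day 3 and 657 for CAP day 6. Tnfrsf9 was called with any 1 library left out. Tnfrsf26 was not without replicate 2 of sham day 3 (-1.66), replicate 3 of CAP day 3 (-1.55) or replicate 2 of CAP day 6 (-1.35). Tnfsf9 lost its call without replicate 3 of sham day 3 (-0.95), replicate 3 of CAP day 3 (-1.01), replicate 2 of sham day 6 (-1.001) or replicate 2 of CAP day 6 (-0.85). Tnfsf15 lost its call without replicate 2 or 3 of sham day 3, replicate 2 or 3 of CAP day 3, replicate 1 of sham day 6, or replicate 1 or 3 of CAP day 6, at values from -0.74 to -1.09. Tnf passed the threshold without replicate 3 of CAP day 6 (-1.86), and its difference shrank to -0.58 without replicate 2. Tnfsf11 (-1.08 ± 0.74 with all libraries) passed it without replicate 1 of sham day 3 (-1.60), and its difference shrank to -0.59 without replicate 2 of CAP day 6.

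In CAP-treated wounds few members differed between day 3 and day 6. Of 37 members tested, 1 was called, Tnfrsf25, which was higher at day 6, beside 2.79% of 18202 genes (1.27% higher). It had 3.73, 2.07 and 2.66 TPM at day 3 and 5.52, 8.99 and 4.80 TPM at day 6, without overlap. The log2 difference was 1.15 ± 0.31 (adjusted p = 0.316 by limma), and it fell under 2-fold without replicate 2 of CAP day 3 (0.96) or of CAP day 6 (0.89). Tnfrsf13b, the BAFF and APRIL receptor of B cells, was the other member with an unadjusted p under 0.05, beside 11.6% of all genes. It had 19.8, 24.2 and 25.7 TPM at day 3 and 16.0, 8.43 and 19.0 TPM at day 6 (-0.75 ± 0.30, and -0.40 without replicate 2 of CAP day 6). Groups did not overlap for 4 of the members tested, beside 17.7% of all genes. Cd27 and Tnfrsf17 lay below the filter at day 3 and rose without overlap, by 1.39 and 2.29 in log2 difference. With 0.3 TPM required in only 1 group, 3 members were called, all higher, both of these among them. Tnfrsf17 was at the floor of the files in replicates 2 and 3 of CAP day 3. Tnfrsf9 differed by 0.18 ± 0.47 and Tnf by -0.04 ± 0.60, with CAP day 3 values of 4.78, 4.59 and 5.42 TPM for Tnf set against 4.32, 2.0 and 12.4 TPM. Tnfsf11 differed by 0.82 ± 0.50 (0.417, 0.728 and 0.430 TPM, then 1.30, 0.441 and 1.54 TPM), by 1.31 without replicate 2 of CAP day 6, which passed the threshold, and by 0.52 without replicate 3. Without replicate 2 of CAP day 3 no member was called, without replicate 3 of CAP day 3 there were 2, and without replicate 3 of CAP day 6 there were 3. Over all genes these settings gave 391, 570 and 886 calls in the same order, against 507 with all libraries. T cell markers summed to 26.2 to 35.3 TPM at day 3 and 64.3 to 79.2 TPM at day 6, with all 6 tested higher and 1 called. Neutrophil markers summed to 1834 to 4822 TPM at day 3 and 278 to 2668 TPM at day 6, with all 5 tested lower and 2 called. Of the keratinocyte markers 2 of 6 were called higher, and of the monocyte and macrophage markers 1 of 8 was called lower. Their part in the result was not tested. The comparisons share groups of libraries, so their values are not independent of each other.

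The genes downstream of the receptors were followed in a pair of lists. The signaling list held 38 genes for adaptors and kinases between the receptors and NF-kappaB or cell death (TRAF, RIPK, IKK and caspase genes among them). None of the 38 was called by limma in any of the 5 comparisons with all libraries. Without replicate 3 of CAP day 6, 2 were called lower with CAP at day 6 and 1 was called lower at day 6 in CAP-treated wounds, and without replicate 1 of CAP day 3, 1 was called higher in the difference of effects. Their number with an unadjusted p under 0.05 was 2 and 10 for CAP against sham at day 3 and day 6, 8 for the difference of those effects, and 4 and 7 for day 6 against day 3 in sham and CAP-treated wounds. The shares of all genes were 6.6%, 19.2%, 11.3%, 16% and 11.6% in the same order. The target list held 35 genes that TNF is known to induce through NF-kappaB. Both lists were chosen with earlier results of these data known, so their counts are no independent support. At day 3, 2 of 35 were called lower with CAP, beside 1.16% of all genes, the chemokines Ccl5 (-1.09 ± 0.43) and Cxcl10 (-1.30 ± 0.53), and none of the list was called without replicate 2 of sham day 3, without replicate 2 of CAP day 3 or with no filter. There was 1 without replicate 3 of sham day 3 or of CAP day 3, and with a pseudocount of 1 TPM or median-ratio scaling. At day 6, 15 of 34 tested were called, all lower with CAP, beside 2.34% of all genes called lower, with a median of -1.01 against -0.12 over all genes. Without replicate 2 of CAP day 6, 9 were called, all lower, beside 171 of all genes called lower. Markers of several cell types also differed at day 6, and their part in these counts was not tested.

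The 4 targets with the smallest p at day 6 were Mmp9, Ccl20, Ccl2 and Icam1. Mmp9, a gelatinase of leukocytes and wound-edge keratinocytes, had 237, 224 and 147 TPM in sham and 84.5, 75.9 and 102 TPM with CAP (-1.19 ± 0.21). Ccl20, a chemokine for CCR6-bearing lymphocytes and dendritic cells, had 20.5, 12.3 and 14.7 TPM and then 2.72, 6.51 and 3.92 TPM (-1.89 ± 0.34). Ccl2, the main monocyte chemokine, had 47.3, 47.7 and 29.7 TPM and then 21.3, 11.8 and 11.2 TPM (-1.52 ± 0.30). Icam1, the leukocyte adhesion molecule, had 67.1, 64.2 and 58.5 TPM and then 32.4, 21.3 and 38.4 TPM (-1.08 ± 0.21). All 4 were lower in every CAP library than in every sham library, replicate 3 included, and each had an adjusted p of 0.205 by limma. They were picked by their p, and groups did not overlap for 17 of the 34 targets tested, beside 26% of all genes. Other targets lay higher in replicate 3 of CAP day 6, with Cxcl2 (229 TPM) and Tnfaip3 (41.5 TPM) above every sham day 6 library. In the difference of CAP effects 10 of 35 targets were called, all lower, beside 2.73% of all genes called lower. There were 17 without replicate 1 of sham day 3. Without replicate 2 of sham day 3, of CAP day 3 or of sham day 6 there were 6, and without replicate 3 of sham day 3 or replicate 2 of CAP day 6 there were 5. In each of these settings at most 1 was higher. In sham wounds 7 of 35 targets were called higher at day 6 than at day 3, beside 2.13% of all genes called higher, and 11 were without replicate 1 of sham day 3. Among them were the matrix proteases Mmp3 (1.35 ± 0.19, adjusted p = 0.0222 by limma) and Mmp9 (1.29 ± 0.24, adjusted p = 0.0435 by limma). In CAP-treated wounds 2 of 34 were called, Cxcl5 and Ccl2, both lower at day 6, beside 1.52% of all genes. There were 4 without replicate 3 of CAP day 3 or without replicate 2 (1 of them higher) or 3 of CAP day 6. Cxcl5 went from 38.8, 61.0 and 41.4 TPM to 10.2, 7.95 and 8.52 TPM and Ccl2 from 61.6, 72.7 and 88.4 TPM to 21.3, 11.8 and 11.2 TPM.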

How the data were processed

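The authors sequenced wound RNA as paired-end reads in 12 libraries (SureSelect XT HS2 mRNA kit), 3 in each of 4 groups by treatment and day. The submitters' processing notes name bcl2fastq, Trimmomatic 0.36 and the build mm10. Expression was estimated by the authors with StringTie, and the deposited tables hold TPM of 55487 genes, where 0.0001 stands for 0. The sources used here name no aligner or annotation. For 45 of the 46 members the coordinates were those of GENCODE M21. TPM carry no read counts, so depth is unknown, and precision rests on the spread between 3 libraries.

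All genes were fitted on log2(TPM + 0.1) with limma 3.58.1 (intensity trend) in R 4.3.3, with Benjamini-Hochberg adjustment. A gene entered a comparison if its mean reached 0.3 TPM in both groups, or in any of the 4 for the difference of CAP effects. The 2-sided exact permutation test of 3 against 3 libraries can give no p under 0.1, and it gave 0.1 for every member tested whose groups did not overlap. The fit was tested on simulated data. Python 3.11.15, pandas 2.3.3, numpy 2.4.6 and matplotlib 3.10.9 served for the rest.

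The members and lists were chosen with earlier results of these data known. Values in every library are given, by rule, for members called in any of the 5 comparisons, for Cd40, Cd27, Tnfsf4, Tnf, Tnfrsf1a and Tnfrsf1b, and for their partners. Other members are given by range, or in more detail after their values were seen. Of the pathway lists at most 4 genes per comparison are named, by smallest p, except Cxcl2 and Tnfaip3, which were named after their values were seen. Promoters come from RefSeq, and the motifs searched in them are consensus forms from general knowledge. Alternatives were a pseudocount of 1 TPM, other filters, a joint fit, the replicate number as a block, median-ratio scaling, and leaving out each library. No pair of libraries held identical values. Among the marker lists not given in the text, skeletal muscle had 1 gene called lower in CAP against sham at day 6 and in each comparison of the days, and the dendritic cell, hair follicle, fibroblast and adipocyte lists had none called in these or at day 3.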

Additional observations from a re-analysis of the deposited data

Results flagged for a closer look

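For 4 members the effect of CAP at day 6 differed from that at day 3 by the test of the difference itself, with an unadjusted limma p under 0.05 and at least 2-fold. The difference was -1.89 for Tnfrsf9, -1.84 for Tnfrsf26, -1.17 for Tnfsf9 and -1.08 for Tnfsf15 on the log2 scale. None of the 4 passed the adjustment over all genes (adjusted p = 0.428 by limma for each), and the share of all genes called in this comparison was 4.9%. The CAP day 6 libraries of Tnfrsf9 (6.80, 6.36 and 22.3 TPM) and of Tnfrsf26 (4.12, 2.21 and 9.56 TPM) were spread, with replicate 3 the highest of each. All 3 CAP day 6 libraries of Tnfsf9 and of Tnfsf15 lay below all sham day 6 libraries.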

How the results depend on the processing

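The number of members called depended most on single libraries. Leaving out each library in turn gave 0 to 3 for CAP against sham at day 3 (0 with all), 1 to 12 at day 6 (3 with all), 1 to 9 for the difference of CAP effects (4 with all), 3 to 7 for day 6 against day 3 in sham wounds (4 with all) and 0 to 3 in CAP-treated wounds (1 with all). At day 3, a filter of 0.3 TPM in at least 1 of the groups compared, or no filter, added 2 calls, both lower. These were Cd27 (-1.60) and Tnfsf4 (-1.52), which the study also lists as lowered. In CAP-treated wounds both settings gave 3 calls, all higher (Tnfrsf25, Cd27 and Tnfrsf17), and a pseudocount of 1 TPM gave 0. The joint fit gave 7 calls at day 6. With the replicate number as a block, the counts were 0, 3, 4, 4 and 1, as without it. Deviations of same-numbered libraries correlated between -0.09 and 0.16, and those of other pairs between -0.16 and 0.14. Deviations from means of only 3 libraries cannot show whether same-numbered libraries share a mouse or handling. Over all genes, a pseudocount of 1 TPM lowered the calls from 290 to 154, 697 to 385, 994 to 580, 688 to 405 and 507 to 299. No filter raised them from 290 to 568 at day 3, from 688 to 1156 in sham wounds and from 507 to 842 in CAP-treated wounds, and the filter in 1 group gave 454 at day 3. Without replicate 3 of CAP day 6 there were 1483, 1777 and 886 in the 3 comparisons that use it, and without replicate 2 there were 311 at day 6 and 657 for the difference. Without replicate 1 of CAP day 3 there were 510 at day 3.

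Among single members, Tnf changed sign between the days in CAP-treated wounds with a pseudocount of 1 TPM (0.0164) and with median-ratio scaling (0.000198), and ranged from -0.72 to 0.57 with a library left out. With a library left out, values also changed sign for Tnf (-0.11 to 0.18) and Tnfrsf1b (-0.19 to 0.20) with CAP at day 3, and between the days in CAP-treated wounds for Tnfrsf26 (-1.03 to 0.0038) and Tnfrsf9 (-0.40 to 0.50). None of these was called with all libraries. A filter of 0.3 TPM in all 4 groups, chosen after seeing the data, left 4 calls for the difference of effects. A filter in at least 1 group is already the one used there. Depth is unknown, so counting error could not be given, and members near 0.3 TPM (Cd27, Tnfsf4, Lta, Fasl, Tnfrsf17) are the least certain. The causes of these changes were not tested.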
